A study of Mus musculus with 2 samples.

Results

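The genes described here encode the enzymes that build sterols and fatty acids, together with the proteins that set how much of these enzymes a cell makes. The list holds 33 genes. Every probe set whose platform annotation named exactly 1 gene, and that gene a member, was taken, which gave 31 probe sets for 30 of the 33 genes among 22180 genes measured in this way. Acat2, Idi1 and Scd2 had no such probe set and were not analysed here. Of the 30 genes, 28 reached the filter level of 4.10, the median log2 intensity over both arrays, in at least 1 culture, as did 13712 of all 22180 genes.

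Cholesterol is made from acetyl-CoA through mevalonate, the isoprenoid farnesyl diphosphate, squalene and a series of ring-shaped sterols. Geranylgeranyl diphosphate, another isoprenoid, is made from farnesyl diphosphate on a side branch. The transcription factors SREBP-1 and SREBP-2, encoded by Srebf1 and Srebf2, switch on the genes of this route and of fatty acid synthesis. When sterols are plentiful, INSIG proteins hold SCAP and its SREBP cargo in the endoplasmic reticulum, and the target genes are transcribed less. In dendritic cells and macrophages, this lipid route is known to be altered when the cells are activated.

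The cells were mouse bone marrow-derived dendritic cells, named GMDC by the submitters. The control culture was compared with a culture that had received conditioned medium of E0771 cells, a mouse mammary tumour line, after these had been treated with topotecan, a topoisomerase I inhibitor. Each condition was 1 culture on 1 array, with no replicate, so no test was possible and every difference below is between 2 arrays. The labels give no mouse strain, age, dose, time or control medium. An effect of topotecan therefore cannot be told apart from one of tumour-conditioned medium as such. Since the RNA came from whole cultures, fewer cells of a type and less RNA per cell cannot be told apart either.

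The cell type label was checked against marker genes. Of 14 measured dendritic cell markers, 13 reached the filter level, and Itgax, which encodes the integrin chain CD11c, had log2 intensities of 8.18 and 7.15, the control array being given first here and below. Zbtb46, a transcription factor of conventional dendritic cells, lay under the filter level on both arrays (3.65 and 3.65). Markers of other myeloid cells were measured too, such as Csf1r of macrophages (8.58 and 5.66) and the neutrophil granule gene Camp (8.57 and 3.03). All 14 macrophage markers and all 14 neutrophil markers reached the filter level as well, as did 61.8% of all genes. These counts therefore do not separate dendritic cells from the other types.

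Genes of sterol synthesis were lower with conditioned medium over most of the route. Those of fatty acid synthesis had a median difference nearer to 0 (-0.82, against -1.48 for sterol enzymes), but this gap was gone (0.012) among genes above the 75th percentile of intensity. Among the 28 kept members, 13 were lower by 2-fold or more after conditioned medium and 0 were higher by as much. Over all 13712 kept genes, 6.84% were at least 2-fold lower and 8.63% at least 2-fold higher. The median log2 difference, conditioned medium minus control, was -0.96 over these 28 genes and -0.07 over all kept genes. A total of 26 of the 28 members had a difference below 0, against 54.0% of all kept genes. The list was chosen with earlier results of these arrays known, so these shares describe it and are no independent evidence of its direction.

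**Figure D1:**
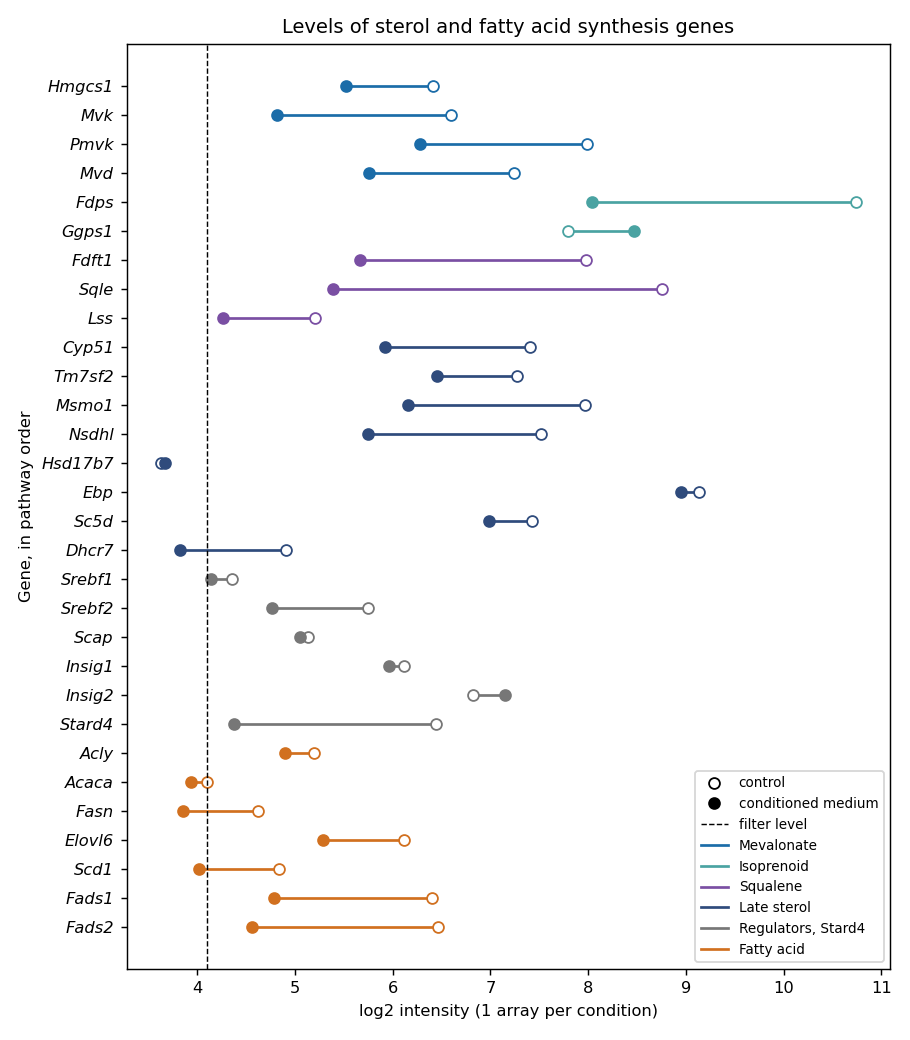
Each row is a gene in pathway order, the horizontal axis is log2 intensity, open circles are the control array and filled circles the conditioned-medium array. The filled circle lies left of the open one for most genes, furthest for Sqle (8.76 and 5.39), and right of it for Ggps1, Insig2 and, by a hair and under the filter level, Hsd17b7; levels of different genes are not comparable because probe sets differ in brightness.

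The promoters are shown first because the sterol genes are known to be switched on by SREBP together with NF-Y, a factor that binds the CCAAT box. RefSeq promoter windows (GRCm38.p6, 250 bases before to 50 after a gene's start) were at hand for 26 of the 33 genes, and Fdps, Fdft1, Sqle, Stard4, Scd1, Scd2 and Fads1 had none. The lines below give the 150 bases before the start, 5′ to 3′ along the gene's strand, with capitals for CCAAT on either strand (ATTGG when read on the other) and for the sterol regulatory element TCACNCCAC on either strand. They hold sterol genes with differences from -1.78 to -0.90 (Hmgcs1, Mvk, Cyp51, Nsdhl), pathway genes that were higher or nearly level (Ggps1, 0.67, and Insig1, -0.15) and fatty acid genes with differences from -1.91 to -0.76 (Fasn, Elovl6, Fads2).
Hmgcs1, chr13:119690201-119690350, plus strand: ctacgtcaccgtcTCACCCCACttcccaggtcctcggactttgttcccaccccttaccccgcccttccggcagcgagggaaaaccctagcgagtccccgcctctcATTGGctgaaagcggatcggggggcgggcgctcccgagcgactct
Mvk, chr5:114444119-114444268, plus strand: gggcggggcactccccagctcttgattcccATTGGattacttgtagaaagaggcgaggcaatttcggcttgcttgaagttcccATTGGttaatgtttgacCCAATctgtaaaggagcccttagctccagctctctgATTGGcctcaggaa
Cyp51, chr5:4104698-4104847, minus strand: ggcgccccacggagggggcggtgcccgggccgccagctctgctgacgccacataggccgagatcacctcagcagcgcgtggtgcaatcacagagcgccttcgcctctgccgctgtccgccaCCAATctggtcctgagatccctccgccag
Nsdhl, chrX:72918371-72918520, plus strand: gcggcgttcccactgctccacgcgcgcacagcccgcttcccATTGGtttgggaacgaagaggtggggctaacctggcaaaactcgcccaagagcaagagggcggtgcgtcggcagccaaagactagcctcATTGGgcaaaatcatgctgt
Ggps1, chr13:14063489-14063638, minus strand: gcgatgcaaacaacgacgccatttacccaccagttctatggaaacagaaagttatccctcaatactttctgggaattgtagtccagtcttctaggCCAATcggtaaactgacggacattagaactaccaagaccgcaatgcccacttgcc
Insig1, chr5:28071262-28071411, plus strand: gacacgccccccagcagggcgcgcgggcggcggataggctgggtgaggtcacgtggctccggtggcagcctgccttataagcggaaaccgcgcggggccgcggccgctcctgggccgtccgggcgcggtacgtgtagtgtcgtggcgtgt
Fasn, chr11:120824548-120824697, minus strand: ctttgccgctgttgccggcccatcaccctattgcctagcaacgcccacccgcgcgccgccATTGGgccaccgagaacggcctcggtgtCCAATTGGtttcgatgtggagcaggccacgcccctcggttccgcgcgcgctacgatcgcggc
Elovl6, chr3:129532236-129532385, plus strand: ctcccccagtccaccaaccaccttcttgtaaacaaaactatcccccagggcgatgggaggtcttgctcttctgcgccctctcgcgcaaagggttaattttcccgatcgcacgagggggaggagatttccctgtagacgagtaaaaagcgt
Fads2, chr19:10101504-10101653, minus strand: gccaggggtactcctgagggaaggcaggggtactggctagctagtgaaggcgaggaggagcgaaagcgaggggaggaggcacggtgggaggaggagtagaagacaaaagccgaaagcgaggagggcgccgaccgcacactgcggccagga

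The CCAAT box was common in the promoter windows of the sterol enzymes, and by gene also in those of the regulator and transport genes. In the whole 300-base windows it occurred, on either strand, in 15 of 19 windows of sterol enzymes (78.9%), in 2 of 5 of fatty acid enzymes and in 37.4% of all 32851 windows in the table. By gene, 15 of 16 sterol enzymes held it in at least 1 window, Acat2 being the exception, against 41.1% of 27025 genes. Of the regulator and transport genes, 4 of 5 held it (80.0%), in 5 of 10 windows. In Acly, a fatty acid gene, the only box lay after the start. Mvk had 4 boxes in the stretch shown and Fasn had 3, of which a pair overlaps in CCAATTGG.

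The sterol regulatory element was matched in 1 window of the members, that of Hmgcs1, and in 1.24% of all windows. Its core as searched is strict, so no match says only that these letters are absent from the window. The E-box CANNTG occurred in 79.4% of the members' 34 windows and 72.3% of all windows. By gene, this order was reversed: 19 of 26 members (73.1%) held it, a slightly lower share than the 20265 of 27025 genes. The E-box was therefore not more common among the members by gene. Its palindromic form CACGTG, a subset of it, occurred in 17.6% and 7.15% of windows, and by gene in 19.2% and 8.09%. Some windows of the same gene overlap, as for Scap, so a site can be counted in more than 1 window. Genes with a CCAAT box were found on both sides of the 2-fold rule. Ggps1 and Ebp hold it and were not lower by 2-fold, while Fads2, at 3.75-fold lower, had none in its window.

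Among the genes that make and use mevalonate, the 3 that use it were at least 2-fold lower and the 1 measured gene that leads to it was not. Mvk, the kinase that first phosphorylates mevalonate, had a log2 intensity of 6.60 in control cells and 4.82 in conditioned-medium cells, 3.43-fold lower. Pmvk, which adds the next phosphate, went from 7.99 to 6.28 (3.29-fold lower). Mvd, the decarboxylase that yields isopentenyl diphosphate, was at 7.24 and 5.76 (2.80-fold lower). These 3 consecutive steps thus had differences within a narrow range, from -1.78 to -1.48. Hmgcs1, the synthase that makes HMG-CoA, was lower by less, at 6.42 and 5.52, a log2 difference of -0.90 that did not reach 2-fold.

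At the isoprenoid branch point the 2 measured genes differed in opposite directions. Fdps makes farnesyl diphosphate, the last intermediate shared by sterols and the other isoprenoids, and its level was 10.74 on the control array and 8.04 on the other, 6.50-fold lower. Among all kept genes, it ranked 59 from the lowest difference. Ggps1, which extends farnesyl to geranylgeranyl diphosphate for protein prenylation, was higher, at 7.79 and 8.46 (log2 difference 0.67, 1.59-fold). It was the sterol-list enzyme with the highest difference, and it leads out of the sterol route.

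Of the squalene steps, 2 of 3 genes were at least 2-fold lower, and Sqle had the largest difference of all kept members. Fdft1, squalene synthase and the first step committed to sterols, had a control level of 7.98 and a conditioned-medium level of 5.66, 4.99-fold lower. Sqle, squalene epoxidase, was at 8.76 and 5.39, 10.3-fold lower, and ranked 26 from the lowest of 13712 genes. Lss, which closes the ring to lanosterol, was at 5.21 and 4.27, a log2 difference of -0.94. The enzymes before and after Sqle thus differed by less than Sqle itself, and Lss lay close to the filter level with conditioned medium, where a difference can be understated.

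In the conversion of lanosterol to cholesterol the differences were uneven. Msmo1 and Nsdhl, which act together to remove methyl groups at carbon 4 of the sterol ring, were 3.50-fold (7.97 and 6.16) and 3.41-fold (7.52 and 5.75) lower. Cyp51, the lanosterol demethylase, was 2.78-fold lower (7.40 and 5.93). Dhcr7, the 7-dehydrocholesterol reductase, was 2.12-fold lower as deposited (4.91 and 3.82), but 1.75-fold when its conditioned-medium value was raised to the filter level.

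The remaining late enzymes did not reach 2-fold. Tm7sf2, a sterol C14 reductase, had a difference of -0.82 (7.28 and 6.46) and Sc5d, a desaturase, one of -0.44 (7.43 and 6.99). Ebp, the sterol isomerase, was nearly level at 9.14 and 8.95. Hsd17b7, the ketoreductase of the demethylation complex, lay under the filter level on both arrays (3.63 and 3.67), so its difference is not read. Within the late steps, the demethylation genes Cyp51, Msmo1 and Nsdhl were thus lower by more than the isomerase and desaturase that follow them.

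Over the 16 kept sterol enzymes, 10 passed 2-fold downward and 0 upward, against 6.84% and 8.63% of all kept genes. Their median log2 difference was -1.48, with quartiles of -1.79 and -0.88. By stretch of the route the medians were -1.60 for 4 mevalonate genes, -1.02 for the 2 isoprenoid genes that went opposite ways, -2.32 for 3 squalene genes and -1.09 for 7 late genes.

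**Figure D2:**
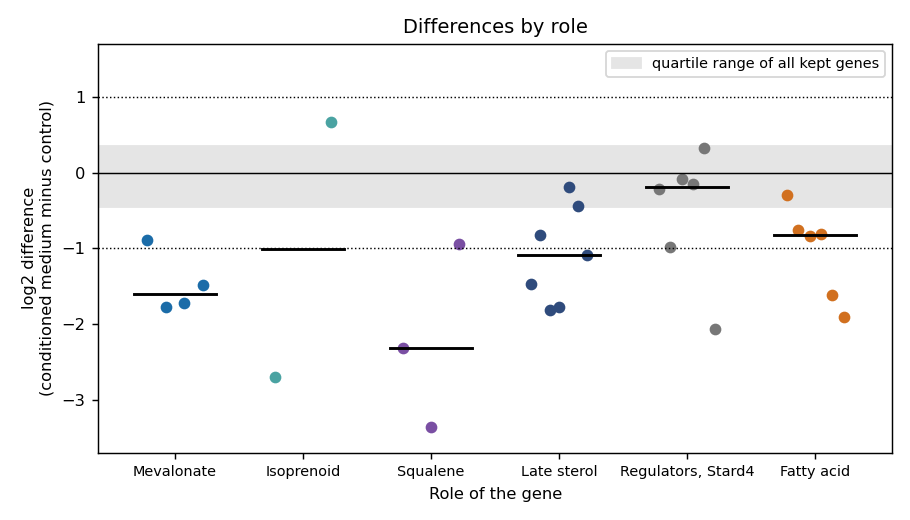
Points are the log2 differences (vertical axis, conditioned medium minus control) of the 28 kept genes by role, black bars are medians, dotted lines mark 2-fold and the grey band spans the range from the lower to the upper quartile of all kept genes. The squalene genes reach lowest, down to -3.36, and most regulators lie inside or near the grey band, except Srebf2 and Stard4.

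Of the kept genes of the early fatty acid steps, Acly differed least, while Fasn differed about as much as the later Elovl6 (-0.83) and Scd1 (-0.82). Acly, which makes cytosolic acetyl-CoA from citrate, had a difference of -0.29 (5.19 and 4.90). Acaca, acetyl-CoA carboxylase, just missed the filter level on the control array and lay further below it on the other (4.10 and 3.93). Fasn, fatty acid synthase, was low on both arrays, at 4.62 and 3.86, with a difference of -0.76 as deposited and -0.52 against the filter level. Acaca and Fasn were therefore measured close to or under the filter level, unlike Acly, and their differences are less certain than those of the brighter sterol genes.

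Of the genes that lengthen and desaturate fatty acids, the polyunsaturated desaturases stood lowest. Fads2, the delta-6 desaturase, was at 6.47 without and 4.56 with the conditioned medium, 3.75-fold lower. Fads1, the delta-5 desaturase, was at 6.40 and 4.79, 3.06-fold lower. The pair are neighbours on chromosome 19, as is Fads3, a related gene that is no member and was nearly level (7.54 and 7.36). Elovl6, which lengthens palmitate, had a difference of -0.83 (6.12 and 5.29), and Scd1, the stearoyl-CoA desaturase, one of -0.82 (4.84 and 4.02), with its conditioned-medium value under the filter level.

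Of the 6 kept fatty acid genes, 2 passed 2-fold downward and 0 upward, against 6.84% and 8.63% of all kept genes, and their median was -0.82. The sterol median minus the fatty acid median was thus -0.66 on the log2 scale. This gap depended on which genes were kept. Among genes above the 75th percentile of intensity only 3 fatty acid genes were left, Elovl6, Fads1 and Fads2, and the medians then differed by 0.012. With low values raised to the filter level instead, the gap was -0.69. A median of 3 genes cannot show whether dimness accounts for the gap. No test of sterol against fatty acid genes was possible, since genes of 1 pair of arrays are not replicates.

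**Figure D3:**
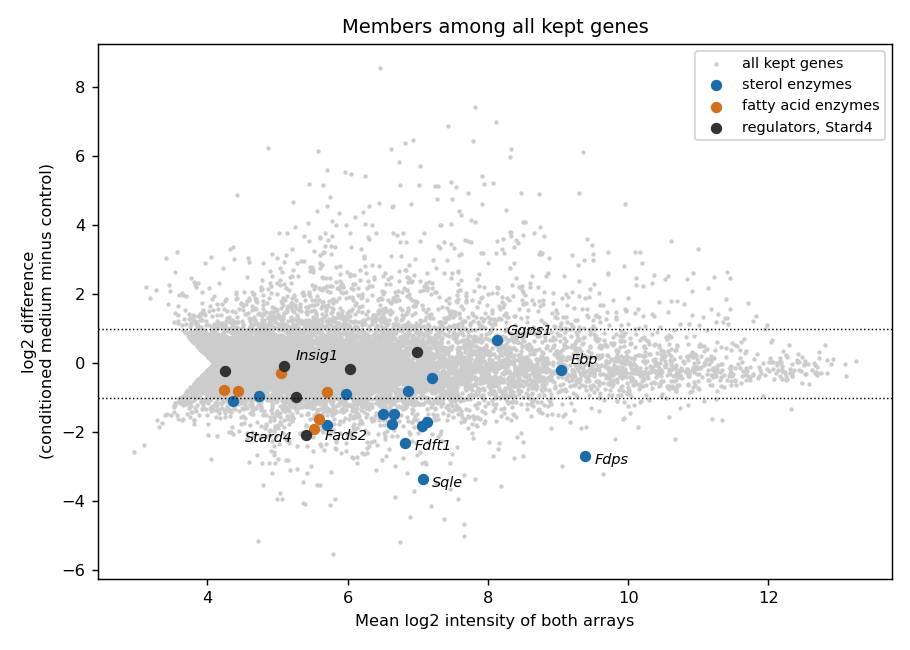
Each grey point is 1 of 13712 kept genes, placed by its mean log2 intensity on both arrays (horizontal axis) and its log2 difference (vertical axis); blue, orange and dark points are sterol enzymes, fatty acid enzymes and regulators with Stard4, and dotted lines mark 2-fold. Sqle, Fdps, Fdft1 and Stard4 lie well below the lower 2-fold line, while Ggps1 and Ebp lie between the lines.

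Of the 6 regulator and transport genes, 5 had a difference below 0 and 1 above, and their sizes were uneven. Srebf2, the factor that acts mainly on sterol genes, was at 5.75 and 4.76, a difference of -0.99 that fell just short of 2-fold. Srebf1, which acts mainly on fatty acid genes, was low and nearly level (4.36 and 4.14). The annotation names no isoform for its probe set. Scap, the sterol-sensing escort, was at 5.13 and 5.05, and a second, dimmer Scap probe set under the filter level was at 3.78 and 3.08.

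The INSIG genes, whose products retain SREBP, differed little. Insig1 was at 6.11 and 5.96, and is itself a known SREBP target, while Insig2 was at 6.82 and 7.15 (log2 difference 0.32). Stard4, a carrier that moves cholesterol between membranes and is a known SREBP-2 target, was 4.20-fold lower (6.44 and 4.38) and ranked 133 from the lowest. The known SREBP targets on the list therefore did not differ alike, as Stard4 and Insig1 were 1.91 apart on the log2 scale. Stard4 was the 1 gene of the 6 regulator and transport genes that was at least 2-fold lower, and 0 were higher, against 6.84% and 8.63% of all kept genes.

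Further pathway genes were counted in lists of their own, against the same 6.84% lower and 8.63% higher of all kept genes. Among 9 kept genes of sterol uptake, transport and transcription, 1 was at least 2-fold lower, Tmem97, a sterol-responsive membrane protein (6.50 and 4.71), and 0 were higher. Acss2, which makes acetyl-CoA from acetate, had a difference of -0.98. Npc2, which carries cholesterol out of lysosomes, and Sp1, a general transcription factor, had differences of 0.52 and 0.67. The median of this list was -0.57.

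Genes that use isoprenoids did not follow the sterol branch in size. None of the 9 kept was 2-fold apart in either direction (0 lower, 0 higher), and the median was -0.46. Pdss2, of ubiquinone side chain synthesis, had a difference of -0.69 and Fnta, a subunit of farnesyl and geranylgeranyl transferase, one of -0.57. Icmt, a methyltransferase for prenylated proteins, and Nus1, of dolichol synthesis, had differences of 0.14 and 0.53.

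Of 10 kept genes of SREBP processing and sterol feedback, 3 passed 2-fold upward, 0 downward and 7 lay between, 4 of the 10 were below 0, and the median was 0.24. Ch25h, which makes 25-hydroxycholesterol, a known inhibitor of SREBP processing, was at 6.83 on the control array and 11.77 on the other. These values are from the brighter of its 2 probe sets, and the dimmer one was not compared. Mylip, a ubiquitin ligase that degrades lipoprotein receptors and is a known LXR target, was 2.34-fold higher (5.17 and 6.39). Nr1h3, which encodes the oxysterol receptor LXR alpha, was higher by 1.22 on the log2 scale. The part of these 3 genes in the sterol differences was not tested. Mbtps1, a protease that cleaves SREBP, and Erlin1, of the reductase degradation machinery, had differences of -0.59 and -0.41.

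Further fatty acid genes differed little, as 0 of 17 passed 2-fold downward and 1 upward, around a median of -0.19. Acsl5, an acyl-CoA synthetase, and Hacd1, a dehydratase of chain elongation, had differences of -0.96 and -0.88. Mid1ip1, an activator of acetyl-CoA carboxylase, was at 5.63 and 6.64 on the brightest of its 3 probe sets, almost exactly 2-fold higher. Thrsp, its relative, had a difference of 0.46 from a control value under the filter level.

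Other gene lists moved between the same arrays, and their part in the sterol differences was not tested. Their counts, here and for the marker lists that follow, stand against 6.84% lower and 8.63% higher of all kept genes. Among proliferation genes, 12 of the 16 kept passed 2-fold downward and 0 upward, and their summed linear intensity was 6532 on the control array and 2207 on the other. The lowest was Ccnb2 (log2 difference -4.66) and then Ube2c (-3.69), and the highest were Tyms (-0.79) and Mcm2 (-0.83). Of 14 neutrophil markers, 10 were at least 2-fold lower and 0 higher, from Camp (-5.54) and Ngp (-5.16) to Cebpe (0.80) and Csf3r (0.89), with summed intensities of 11549 and 3481. All 14 were above the filter level in the control and 4 lay under it with conditioned medium. The summed intensity of the 17 measured sterol enzymes was 4778 and 1856. Such sums, here and for the marker lists that follow, are weighted towards bright probe sets. Among the sterol enzymes, Fdps was the brightest on the control array (10.74 and 8.04).

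Macrophage and dendritic cell markers were mixed. Of 14 macrophage markers, 4 were at least 2-fold lower and 0 higher, with Chil3 (-2.99) and Csf1r (-2.93) lowest, Fcgr1 (0.98) and C1qb (0.26) highest, and summed intensities of 22670 and 23051. Of 13 kept dendritic cell markers, 4 were lower and 5 higher, with Batf3 (-2.03) and Clec10a (-2.01) lowest, Dpp4 (2.25) and H2-Aa (1.88) highest, and summed intensities of 4598 and 7666. Of 12 measured markers of mammary tumour cells and stroma, 5, among them Epcam, lay under the filter level on both arrays. Of the other 7, 0 were at least 2-fold lower and 2 higher, with Cdh1 (3.79) and Krt19 (2.15) highest, Col3a1 (-0.68) and Col1a2 (-0.63) lowest, and summed intensities over all 12 of 3320 and 3394. Cdh1 and Col1a2 had 2 probe sets each, of which the brighter is given.

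The spread in these files comes only from probe sets of the same gene, whose log2 differences had a pooled SD of 0.46 (787 degrees of freedom); it holds no variation between cultures. Just inside the 2-fold rule lay Dhcr7 (-1.09) and just outside it Srebf2 (-0.99), Lss (-0.94) and Hmgcs1 (-0.90). These, and also Elovl6 (-0.83), Tm7sf2 (-0.82), Scd1 (-0.82), Fasn (-0.76) and, on the higher side, Ggps1 (0.67), were closer to the limit than this SD. At 1.5-fold, 20 of 28 members were lower and 1, Ggps1, was higher, against 17.9% and 16.6% of all kept genes. At 3-fold, 10 were lower and 0 higher, against 2.11% and 4.14%.

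**Figure D4:**
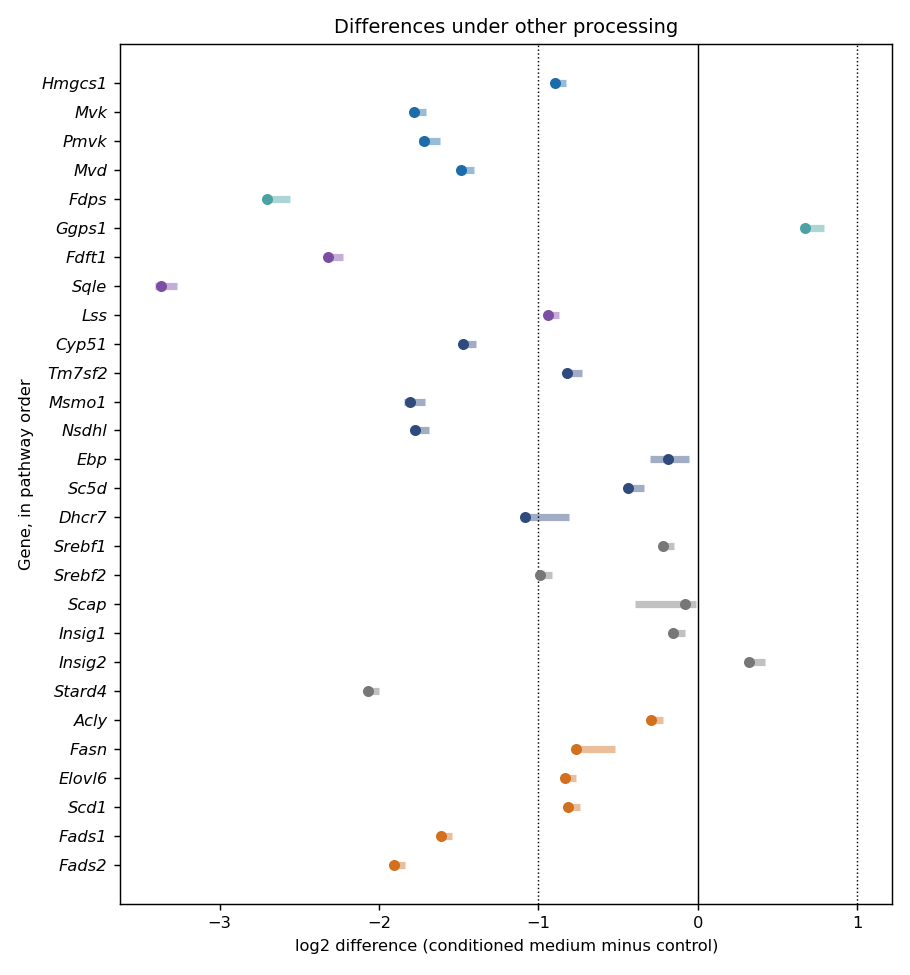
Points are the log2 differences of the 28 kept genes (horizontal axis, conditioned medium minus control) in pathway order, bars span their values under up to 7 other ways of processing, and dotted lines mark 2-fold. No bar crosses 0, and Dhcr7 alone crosses the 2-fold line, reaching -0.81. A filter setting cannot change a value, and the mean of probe sets could change only Scap.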

How the data were processed

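Total RNA of 1 control and 1 conditioned-medium culture was hybridised to an Affymetrix array each, from 6 ug, per the labels' protocols. The authors deposited 1 value per probe set and array, which the range of -0.26 to 13.50 shows to be on a log scale, read here as log2 intensity. Per the submitters' processing notes, Affymetrix Expression Console was used; its version and algorithm, and the genome build, were not given in the sources used here, nor was any background correction. The columns' medians were 4.10 and 4.09, so a shift of most genes one way would not be seen.

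Of 41345 probe sets, 23521 had 1 symbol, 1814 several and 16010 none in the platform annotation. A gene was represented by its probe set with the highest mean, and kept when its higher value reached 4.10. Differences were conditioned medium minus control, and genes were counted at 2-fold; the counting was tested on simulated data. The number of arrays limits the precision. The members, the 9 further lists and the motifs were chosen with earlier results of these data known. The text names all members, the 2 highest and 2 lowest kept genes of each list and Ch25h; Itgax, Zbtb46, Epcam, Nr1h3 and Fads3 were named after their values were seen. Alternatives were quantile normalization, lowess subtraction (fraction 0.3, 3 iterations), centring, the mean of probe sets, filtering at the 75th percentile or not at all, raising low values to the filter level, and 1.5-fold and 3-fold rules. Python 3.11.15, pandas 2.3.3 and statsmodels 0.14.6 were used.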

Additional observations from a re-analysis of the deposited data

How the results depend on the processing

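Under the 7 alternatives of normalization, probe set choice, filter and low values, all 189 member differences kept their direction and moved by less than the SD between probe sets, and Dhcr7 alone left the 2-fold count, when low values were raised to the filter level. Much of this was fixed beforehand. A filter cannot change a difference, raising low values cannot reverse one, and the mean of probe sets could change only Scap. Centring moved every gene by the same amount. The arrays' sorted values differed by only 0.015 on average, which left quantile normalization little to change. The count of 189 is therefore weak evidence of robustness. Of 135 counts and medians, 126 moved by less than that SD or, for counts, by no more than 1.5 times, and the other 9 came from fewer or differently counted genes. With the filter at the 75th percentile, the median was -1.48 over 21 members, -1.61 over 3 fatty acid genes and -2.84 over 2 squalene genes, and the sterol median minus the fatty acid median was 0.012 in place of -0.66. With the 1.5-fold rule, 20 members were lower (5 fatty acid genes and 2 regulator or transport genes among them) and 1 was higher, the sterol list enzyme Ggps1, so that count was 1 for sterol enzymes too. No paired analysis was possible because each condition had 1 array. Detection calls were not used, and values near the filter level cannot be told from background.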
